A study of Mus musculus with 4 samples.

Results

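The CCAAT/enhancer binding proteins (C/EBPs) are basic leucine zipper (bZIP) transcription factors, and 3 of them, Cebpa, Cebpb and Cebpg, were followed in single alveolar epithelial cells of the mouse lung. The rule named 4 genes, of which these 3 were listed in all 4 libraries, among 11242 genes listed in all of them; Cebpd was not analysed here. The libraries held AT2 cells at postnatal day (P) 60 and AT1 cells at P3, P15 and P60, with 1 library in each of the 4 groups. All came from tamoxifen-treated mice of a mixed FVB/C57BL6 strain with the alleles Sftpc-CreER, Rosa26-Zsgreen and Hopx-RFP. AT2 cells were sorted as GFP+CD45- and AT1 cells as RFP+Pdpn+GFP-CD45-, so that Sftpc, Hopx and Pdpn took part in the choice of cells. CreER acts from the Sftpc gene, so the AT2 gate holds only cells that recombined. Both gates select against leukocytes by CD45, but clusters with immune markers remained in the libraries. AT1 lungs were digested with elastase and type I collagenase in addition to the neutral protease and DNase I used for AT2 lungs. Age, library and handling cannot be told apart, nor can cell type and digestion.

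C/EBP proteins bind DNA as dimers, among themselves or with other bZIP proteins, through a basic region and a leucine zipper. Cebpa drives terminal differentiation in liver, fat and myeloid cells and is needed for the maturation of AT2 cells, which make surfactant. Cebpb responds to cytokines, glucocorticoids and cyclic AMP and acts in inflammation and tissue repair, and Cebpg lacks a strong activation domain of its own and works mainly through its partners, such as Atf4. AT1 cells are the thin cells of gas exchange, and AT2 cells are their surfactant-secreting neighbours and progenitors.

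Cebpa lies at chr7:35119293-35121928 on the plus strand of mm10, and Cebpg at chr7:35046422-35056573 on the minus strand, 62719 bases away with 4 annotated genes between them, 0 of them protein coding. Cebpb lies at chr2:167688915-167690418 on the plus strand and has 1 exon. The 250 bases before each RefSeq start (assembly GRCm38.p6, 5′ to 3′ on the strand of the gene) are shown because the 3 genes had different patterns over the libraries. They cover chr7:35119043-35119292 for Cebpa, chr2:167688665-167688914 for Cebpb and chr7:35056567-35056816 for Cebpg, and capitals mark motifs found by letter. The gene spans above carry Ensembl identifiers, and the start of Cebpg differs from that of RefSeq. The Cebpg window therefore overlaps the end of its span at 35056573.
Cebpa: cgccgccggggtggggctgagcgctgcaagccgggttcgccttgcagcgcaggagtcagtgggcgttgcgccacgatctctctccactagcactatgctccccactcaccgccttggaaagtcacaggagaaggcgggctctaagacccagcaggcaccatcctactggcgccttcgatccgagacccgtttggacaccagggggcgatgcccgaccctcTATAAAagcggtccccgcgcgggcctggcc
Cebpb: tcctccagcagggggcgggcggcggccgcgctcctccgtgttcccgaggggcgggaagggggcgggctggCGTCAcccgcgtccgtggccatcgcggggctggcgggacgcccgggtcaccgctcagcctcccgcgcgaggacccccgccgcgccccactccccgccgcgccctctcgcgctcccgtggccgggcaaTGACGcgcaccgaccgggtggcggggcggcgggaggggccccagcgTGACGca
Cebpg: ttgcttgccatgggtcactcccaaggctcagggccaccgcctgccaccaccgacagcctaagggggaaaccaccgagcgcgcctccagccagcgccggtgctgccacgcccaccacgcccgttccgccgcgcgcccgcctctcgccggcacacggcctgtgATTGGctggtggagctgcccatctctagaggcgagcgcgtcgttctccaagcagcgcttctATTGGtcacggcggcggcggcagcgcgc
The windows held 66.4% G and C for Cebpa, 81.6% for Cebpb and 70.8% for Cebpg. All 3 windows were matched in RefSeq by symbol, and 6 motifs were searched on both strands.

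The Cebpa window had the letters TATAAA 30 bases before the start, the box that can set where transcription begins and a motif held by 12.4% of 32851 promoters of the same length. The Cebpb window had 3 copies of TGACG, the core of a cyclic AMP response element, at 180 (as CGTCA), 53 and 7 bases before the start, and 17.8% of promoters held at least 1 copy. The Cebpg window had CCAAT on the other strand (ATTGG) at 89 and 28 bases before the start, a motif of 33.8% of promoters. The full response element TGACGTCA, the C/EBP letters TTGCNNAA and the STAT letters TTCNNNGAA, in which N is any base, were not found in the 3 windows and were held by 1.55%, 9.56% and 7.02% of promoters. The core is contained in the full element, and a match by letter is a description of the window.

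Levels are given as UMIs (distinct captured RNA molecules) per 1000000 UMIs of the class, or CPM. The class is the cells of the sorted type, AT2-like or AT1-like by their marker genes, after clusters and single cells with markers of another type were set aside. For markers of the other alveolar type only whole clusters were set aside, so single cells with such markers stayed in the class. It held 1980 AT2 cells (94.6%) and 2814 (89.4%), 2645 (90.0%) and 1154 (86.3%) AT1 cells at P3, P15 and P60. Class totals ran from 6244724 to 22342635 UMIs, with medians of 4900.5 UMIs per cell in AT2 and 7280, 4934 and 5328 in AT1 at P3, P15 and P60. In each class every marker of the sorted type was detected, with 15 AT2 and 17 AT1 markers. Intervals are exact 95% Poisson intervals for levels and ratios and exact Clopper-Pearson intervals for shares, and they cover counting error only, since there were no replicates. No p-value is given. The members were chosen with their levels in these libraries known, so levels and ratios between the libraries are a description.

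Cebpa was high in AT2 cells and near 0 in AT1 cells at all 3 ages. Its level was 330 CPM in AT2 cells (3288 UMIs, interval 319 to 342), against 1.61 CPM at P3 (36 UMIs), 1.24 CPM at P15 (17 UMIs) and 0.320 CPM at P60 (2 UMIs) in AT1 cells. At P60 this is a ratio of AT2 to AT1 of 1031, with a counting interval of 285 to 8516 that is wide because the AT1 class held 2 UMIs. The AT2 library stood far above the 3 AT1 libraries, whose intervals (1.13 to 2.23 CPM at P3, 0.722 to 1.99 at P15 and 0.0388 to 1.16 at P60) overlap one another. The ratio of P60 over P3 in AT1 cells was 0.199 with an interval of 0.0232 to 0.772, on 2 and 36 UMIs and below the minimum for a call.

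A Cebpa UMI was seen in 1488 of 1980 AT2 cells (75.2%, interval 73.2 to 77.0%), and in 1.14%, 0.605% and 0.173% of AT1 cells at P3, P15 and P60. Clusters with endothelial or stromal markers were set beside them, although these types are not shown here to lack Cebpa. In these clusters 0 of 50 cells at P3 had a UMI, which at the limit of 3 counts allows a share of up to 6%. At P15, 2 of 42 endothelial-like cells (4.76%) and 4 of 110 fibroblast- and smooth muscle-like cells (3.64%) had one, and at P60 1 of 53 cells (1.89%). Median depths in those clusters were 9361.5 UMIs at P3, 3499 and 4752.5 at P15 and 2948 at P60. The AT1 shares at P15 and P60 were below those of these clusters, whose intervals are wide. At P15 the endothelial-like interval (0.582 to 16.2%) covers the AT1 share, and that of the fibroblast- and smooth muscle-like cells (0.9995 to 9.05%) lies above it. The fibroblast- and smooth muscle-like cells held 8.75 CPM of Cebpa (5 UMIs, 2.84 to 20.4), so they cannot serve as a background. The P60 interval (0.0478 to 10.1%) covers the AT1 share. The 50 cells at P3 and the 53 at P60 are too few to set a background, and no order of ages is drawn from the AT1 shares.

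The Cebpa UMIs were also set beside those of Sftpc, the surfactant protein gene with the highest level of the AT2 markers. AT2 cells held 2.42 Cebpa UMIs per 1000 Sftpc UMIs (interval 2.34 to 2.50), while AT1 cells held 5.19 (3.63 to 7.19) at P3, 9.93 (5.77 to 15.9) at P15 and 1.45 (0.176 to 5.26) at P60. The AT2-like cluster that slipped through the AT1 gate held 2.46 at P3, and the AT2-like clusters mixed with other types held 3.35 at P15 and 2.71 at P60. That ratio in AT1 cells lay above that of the AT2-like cells beyond counting error at P3 and P15, on 36 and 17 Cebpa UMIs, and the P60 interval covers it. Other cells of these libraries also held Cebpa, with 40.4 CPM in club-like and ciliated-like cells at P3 and 88.6 CPM in immune-like cells at P15. The source of the AT1 UMIs was not tested.

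**Figure D1:**
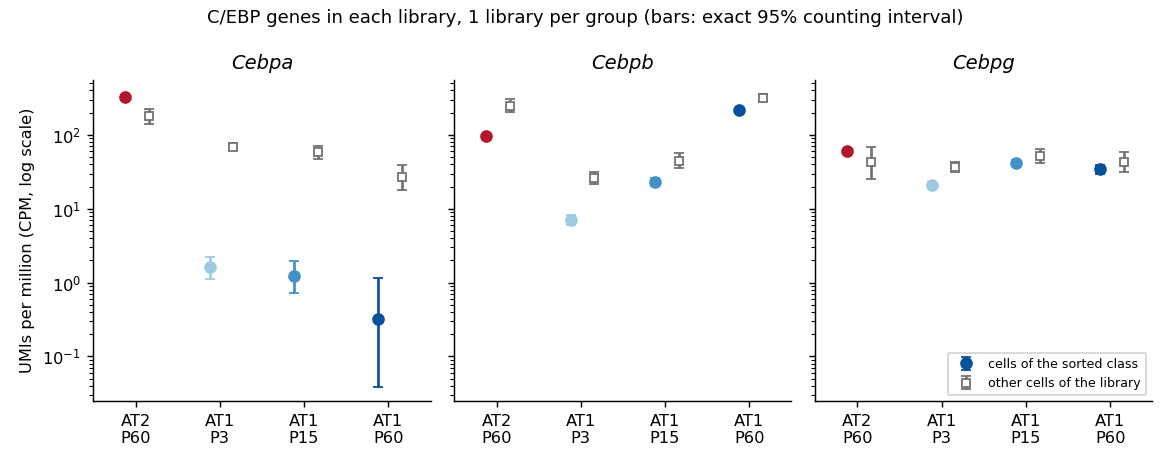
Level of Cebpa, Cebpb and Cebpg in CPM (log scale) in each library, with filled points for cells of the sorted class, open squares for the other cells of the same library and bars for the exact 95% counting interval. Cebpa stands at 330 CPM in AT2 cells and at most 1.61 CPM in AT1 cells, and Cebpb at 217 CPM in AT1 cells at P60 and 7.03 CPM at P3.

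Cebpb was the member that differed most between AT1 ages. It stood at 95.6 CPM in AT2 cells (952 UMIs, interval 89.6 to 102) and at 7.03 CPM at P3 (157 UMIs, 5.97 to 8.22), 23.1 CPM at P15 (317 UMIs, 20.6 to 25.8) and 217 CPM at P60 (1358 UMIs, 206 to 229) in AT1 cells. The order from high to low was AT1 at P60, AT2 at P60, AT1 at P15 and AT1 at P3, and no interval overlapped another. The level was 3.29-fold higher at P15 than at P3 (2.71 to 4.01), 9.40-fold higher at P60 than at P15 (8.32 to 10.7) and 30.9-fold higher at P60 than at P3 (26.2 to 36.7). Ratios at least as high were seen for 107 of 6023, 12 of 6243 and 15 of 6333 genes in these comparisons, counting Cebpb itself. AT2 cells at P60 had 2.27-fold less Cebpb than AT1 cells of that age (interval 2.09 to 2.47), a log2 ratio of -1.19, where the median of 6429 genes was -0.73. With trimmed mean scaling, which moved the median of all genes by 0.69, the log2 ratio of Cebpb was -0.50, and without ribosomal, mitochondrial and haemoglobin genes in the total it was -0.97, so that the 2-fold call depends on the scaling.

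Cebpg differed least over the libraries. Its level was 60.2 CPM in AT2 cells (600 UMIs, interval 55.5 to 65.3), and 20.9 CPM at P3 (467 UMIs, 19.05 to 22.9), 42.2 CPM at P15 (578 UMIs, 38.8 to 45.7) and 34.4 CPM at P60 (215 UMIs, 29.98 to 39.4) in AT1 cells. AT2 was highest and AT1 at P3 lowest, and the intervals of AT1 at P15 and P60 overlap. Cebpg was 2.02-fold higher at P15 than at P3 (1.78 to 2.28), which is at the edge of the 2-fold threshold, and 0.817-fold as high at P60 as at P15 (0.695 to 0.957). AT2 cells had 1.75 times the AT1 level at P60 (1.49 to 2.05). Trimmed mean scaling gave a log2 ratio of AT2 over AT1 of 1.49 in place of 0.81.

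A gene was called at 2-fold where the higher library had at least 20 CPM and 30 UMIs. Of the 3 members, 2 were called higher at P15 than at P3 (Cebpb and Cebpg; 7.47% of all genes tested were) and 0 lower (5.73%). Between P60 and P15, 1 was called higher (Cebpb; 4.32%) and 0 lower (3.7%). Between P60 and P3, 1 was called higher (Cebpb; 12.5%) and 0 lower (7.86%). In AT2 over AT1 cells at P60, 1 was called higher (Cebpa; 10.8%) and 1 lower (Cebpb; 38.9%). Cebpa reached the minimum only in the comparison with AT2 cells, and nothing is read from these counts, since the members were chosen on the same comparisons. The Cebpg call at P15 over P3 was lost with a minimum of 50 CPM, with a 4-fold threshold and under 3 alternatives of scaling or cell choice: its log2 ratio of 1.01 became 0.90 with trimmed mean scaling, 0.80 without ribosomal, mitochondrial and haemoglobin genes and 0.89 with all cells of the library.

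**Figure D2:**
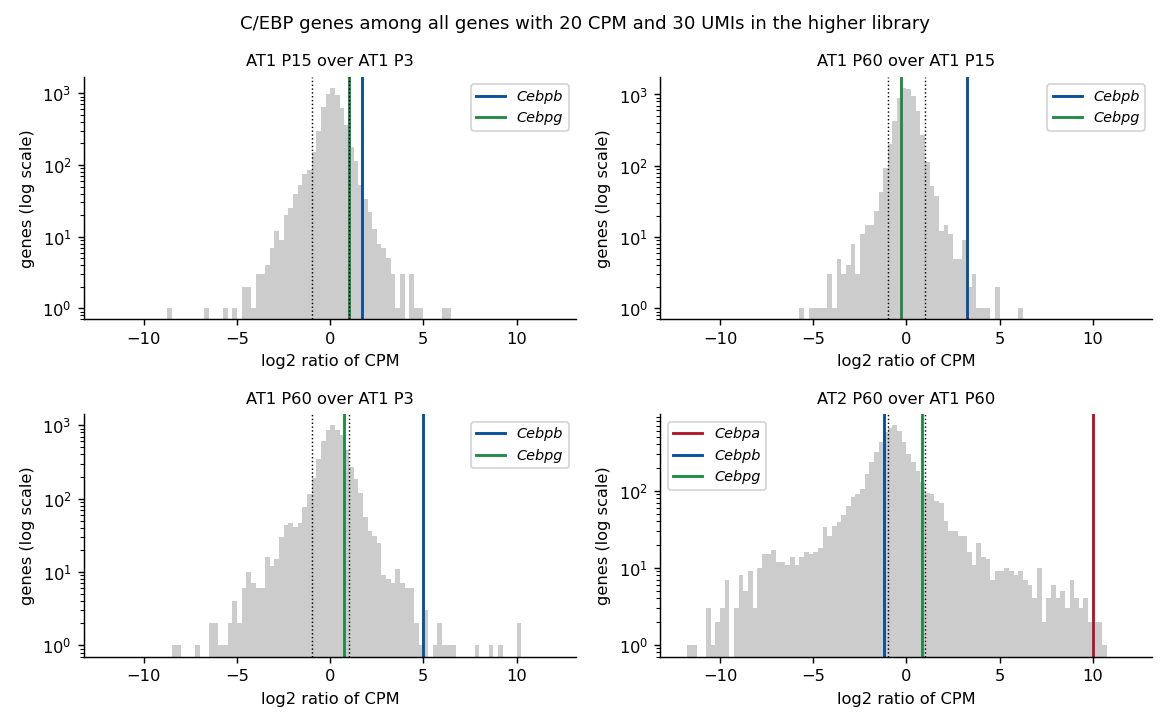
Number of genes (log scale) by log2 ratio of CPM in the 4 comparisons, with the members that passed the minimum as coloured lines and the 2-fold thresholds dotted. Cebpb lies at 4.95 for AT1 P60 over P3, Cebpa at 10.01 for AT2 over AT1 at P60, and the bulk of genes in that last panel is centred at -0.73.

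Single cells were thinned to 2000 UMIs each to compare shares, which left out 40 AT2 cells and 0, 210 and 120 AT1 cells at P3, P15 and P60. Cebpa was then seen in 45.7% of AT2 cells (43.4 to 47.9%), with 31.4% of cells at 1 UMI, 10.9% at 2 and 3.35% at 3 or more. Cebpb was seen in 17.2% of AT2 cells (15.5 to 18.9%), and in 1.39% (0.987 to 1.89%), 4.85% (4.03 to 5.78%) and 34.4% (31.5 to 37.4%) of AT1 cells at P3, P15 and P60. Before thinning the shares of Cebpb were 37.2% in AT2 and 5.33%, 11.1% and 61.4% in AT1. The order was the same on both scales, and at P60 some AT1 cells held more than 1 UMI: 6.87% had 2 and 0.967% had 3 or more at the thinned depth, and the highest cell held 10 before thinning.

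Cebpg was seen in 11.7% of thinned AT2 cells and in 3.77%, 8.05% and 6.09% of AT1 cells at P3, P15 and P60, against 26.2% of AT2 cells and 14.5%, 19.1% and 16.2% of AT1 cells before thinning. No cell type of these libraries can be taken to lack Cebpb or Cebpg, so no background share was set beside them. Before thinning, the Cebpb UMIs of AT1 cells lay in 150 cells at P3, 293 at P15 and 709 at P60.

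**Figure D3:**
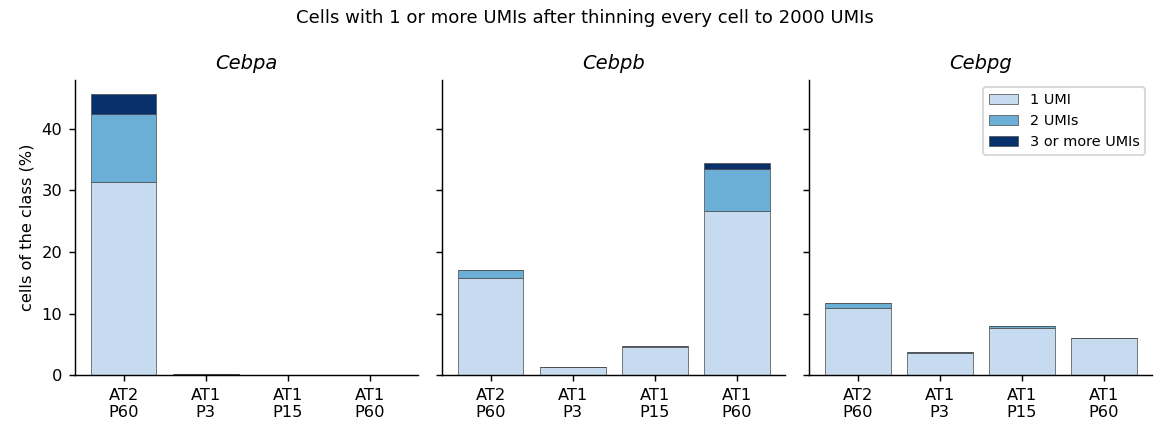
Share of class cells (%) with 1, 2 or 3 or more UMIs of each member after thinning to 2000 UMIs per cell. Cebpa UMIs are seen in 45.7% of AT2 cells and at most 0.284% of AT1 cells, and Cebpb in 34.4% of AT1 cells at P60 and 1.39% at P3.

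Detection of one member was set against detection of another in the same cells. At the thinned depth Cebpb was seen in 17.2% of the 886 AT2 cells with a Cebpa UMI (14.7 to 19.8%) and in 17.2% of the 1054 without (14.9 to 19.6%). Cebpg was seen in 12.1% of the cells with Cebpa (10.0 to 14.4%) and in 11.4% of those without (9.53 to 13.5%). In AT1 cells at P60, Cebpg was seen in 6.18% of the 356 cells with Cebpb (3.91 to 9.21%) and in 6.05% of the 678 without (4.37 to 8.11%). These pairs of intervals overlap, which at this depth does not show that the genes are independent. A UMI of all 3 members was seen in 17 AT2 cells (0.876%), and of 2 members in 12.6% of AT2 cells and 0.0711%, 0.329% and 2.22% of AT1 cells at P3, P15 and P60.

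Clusters were made without the C/EBP genes, so that levels by cluster are not their defining genes. Cebpb spanned 81.1 to 110 CPM over the 4 AT2-like clusters, and 5.02 to 9.27 CPM over 6 AT1-like clusters at P3, 16.4 to 38.7 CPM over 6 at P15 and 136 to 233 CPM over 5 at P60. The ranges of the 3 ages did not overlap, but the intervals of the highest P3 cluster (6.65 to 12.6) and the lowest P15 cluster (12.1 to 21.6) did. The lowest P60 AT1-like cluster (33 UMIs, interval 93.4 to 191) also overlapped the highest AT2-like one (133 UMIs, 91.8 to 130). No order is drawn between the clusters of these pairs. At P60 the 2 highest clusters held 231 and 233 CPM at median depths of 7826 and 5909 UMIs, and the lowest had a median depth of 2119 UMIs, with Lars2 and Neat1 among its 3 leading genes. At P15 the highest, at 38.7 CPM, was likewise a shallow cluster led by Lars2 (2868 UMIs), so the direction with depth was not the same at both ages.

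Cebpa spanned 296 to 367 CPM over the AT2-like clusters, a narrow range beside the distance to AT1 cells. The highest was led by Kcnk2, Snhg11 and Malat1 and the lowest by Lrg1, Fdps and Dmkn. Cebpg spanned 52.3 to 66.4 CPM in AT2 cells, and 15.4 to 26.1, 34.0 to 44.6 and 20.6 to 38.5 CPM in AT1 cells at P3, P15 and P60.

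Cells outside the class show where else the genes were detected. Cebpa stood at 192 CPM in the 65 AT2-like cells of the P3 library (167 to 220), at 40.4 CPM in 142 club-like and ciliated-like airway cells of that library (31.7 to 50.7) and at 88.6 CPM in 54 immune-like cells at P15 (55.5 to 134). Club cells and myeloid cells are known to express Cebpa. The P3 AT2-like cells had Cebpb at 8.19 CPM (9 UMIs, 3.74 to 15.5), close to the AT1 cells beside them and far from the 95.6 CPM of AT2 cells at P60; the 2 came through different gates. The P3 airway-like cells had Cebpb at 36.1 CPM (27.9 to 45.9).

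The P60 AT1 library was high in Cebpb outside its AT1 cells too. A cluster of 53 cells with both endothelial (Cldn5, Ramp2) and stromal (Inmt, Mfap4, Tagln) markers among its 10 leading genes held 258 CPM (46 UMIs in 14 cells, 189 to 344). At P15, where these types fell into separate clusters, 42 endothelial-like cells held 0 UMIs, which at the limit of 3 counts allows up to 13.6 CPM, and 110 fibroblast- and smooth muscle-like cells held 33.3 CPM (20.02 to 51.9). In the P60 AT1 library, the cluster of AT2-like and immune-like cells held 639 CPM (542 to 749). Over all cells outside the class Cebpb was at 26.5 CPM at P3, 44.9 CPM at P15 and 318 CPM at P60, which is 12.01-fold higher at P60 than at P3 (9.66 to 15.0), over cells whose mix of types differs between the libraries. The AT2 library had 250 CPM outside its class, with 461 CPM in 72 immune-like cells (368 to 571).

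**Figure D4:**
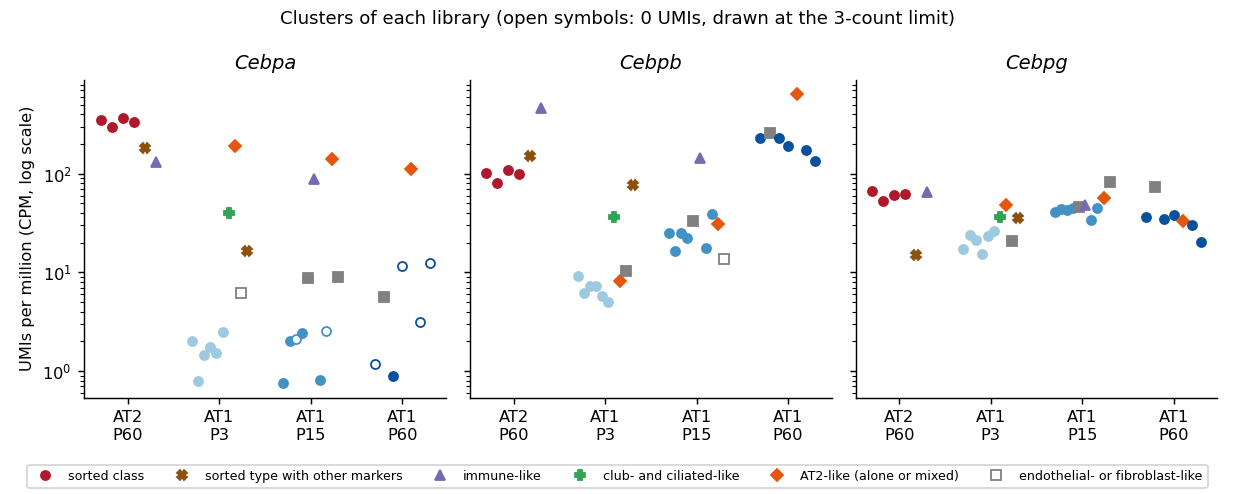
Level of each member in every cluster of each library (CPM, log scale), with round points for clusters of the sorted class, other shapes for clusters of other types and open symbols for clusters with 0 UMIs, drawn at the limit of 3 counts. The 5 AT1-like clusters at P60 lie between 136 and 233 CPM of Cebpb, above all AT1-like clusters of P3 and P15, and the square at 258 CPM is the cluster of that library with endothelial and stromal markers.

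Immune cells carry much Cebpb, so their markers are given beside it. The 14 immune markers summed to 98.4 CPM in the AT2 class (12 listed, of which Mrc1 and Cd79a were listed at 0), and to 32.4, 15.5 and 104 CPM in the AT1 classes at P3, P15 and P60 (10, 13 and 12 listed, with Cd3e at 0 at P15). S100a8 was the highest at P60, at 41.3 CPM, and 42.4% of AT1 cells of that age had at least 1 immune marker UMI. In the 2115, 2434 and 636 AT1 cells at P3, P15 and P60 with no immune, platelet or erythroid marker UMI, a selection made after the data were seen, Cebpb had a log2 ratio of P60 over P3 of 4.93, against 4.95 in the whole class. AT2 markers summed to 605, 386 and 503 CPM in AT1 cells at P3, P15 and P60, and without cells that held 3 or more of them the log2 ratio was 5.18.

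RNA composition also differed: Malat1, a nuclear RNA, took 4.01% of UMIs in AT2 cells and 4.27%, 6.69% and 16.1% in AT1 cells at P3, P15 and P60, and ribosomal protein genes took 14.6% in AT2 cells and 20.3%, 7.31% and 4.75% in AT1 cells. The part of these in the Cebpb result was not tested beyond scaling. Leaving out Malat1 gave a log2 ratio of P60 over P3 of 5.14, and leaving out ribosomal, mitochondrial and haemoglobin genes gave 4.70.

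Cebpb can be induced within minutes to hours by stimuli that also raise immediate early genes, so the cells of each class were put into 4 bins of like size by the share of UMIs from these genes. In AT2 cells Cebpb ran from 81.6 to 109 CPM over the bins, highest in the bin highest in these genes. In AT1 cells it ran between 5.49 and 7.86 CPM at P3, between 19.4 and 27.4 CPM at P15 and between 210 and 225 CPM at P60. Of 17 immediate early genes measured between P60 and P3, 14 were at least 2-fold lower at P60 and 1 higher (7.86% and 12.5% of all genes were), with a median log2 ratio of -3.23 beside 0.17 over all genes. Fos, a bZIP partner of Jun, had 96.1 CPM at P60 and 2369 CPM at P3.

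Genes related to the C/EBP genes by name or as dimer partners were read next. Of the 7 on the list, Cebpe was not analysed here and the other 6 were listed. Ddit3, which encodes the dominant-negative relative CHOP, had 13.3 CPM in AT2 cells and 37.5, 56.8 and 47.9 CPM in AT1 cells at P3, P15 and P60. Atf4, the partner of Cebpg in the amino acid response, had 61.0 CPM in AT2 cells and 182, 125 and 81.7 CPM in AT1 cells at those ages, so it was lowest at P60 among AT1 cells, where Cebpg was lowest at P3. Cebpz, which is not a bZIP gene, had 27.4 CPM in AT2 cells and 44.4, 26.4 and 38.8 CPM in AT1 cells. Atf3, a stress-induced bZIP factor, had 13.6 CPM in AT2 cells and 391, 51.1 and 19.1 CPM in AT1 cells. Of the 5 measured between P60 and P3, 0 were at least 2-fold higher and 3 lower (12.5% and 7.86% of all genes were), and of the 3 measured between AT2 and AT1 at P60, 0 were higher and 1 lower (Ddit3), beside 10.8% and 38.9%.

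Upstream of Cebpb, the interleukin 6 receptor gene Il6ra had 2.91 CPM in AT2 cells and 0.0448 CPM (1 UMI), 11.9 CPM and 49.6 CPM in AT1 cells at P3, P15 and P60. Its ratio of P60 over P3 was 1109, with an interval of 198 to 43948 that rests on the single UMI. Il6st, the shared signalling subunit, was 2.19-fold higher at P60 than at P3, at 69.0 and 31.5 CPM. Nr3c1, the glucocorticoid receptor, had 48.9 CPM in AT2 cells and 128, 106 and 168 CPM in AT1 cells at P3, P15 and P60. Trib1, whose product targets C/EBP alpha for degradation, had 32.5 CPM at P60 and 63.4 CPM at P3. The list held upstream signalling genes and cofactors of C/EBP proteins. Of its 11 genes measured between P60 and P3, 2 were at least 2-fold higher (Il6ra and Il6st) and 0 lower, near the 12.5% and 7.86% of all genes. Of 12 measured between AT2 and AT1 cells at P60, 2 were higher and 2 lower (10.8% and 38.9% of all genes were), with Stat3 at 109 and 52.7 CPM and Nfkb1 at 46.9 and 15.7 CPM.

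Genes of surfactant and secretion, several of them known targets of C/EBP alpha, were high in AT2 cells, as Cebpa was. Of 12 measured, 11 were at least 2-fold higher in AT2 than in AT1 cells at P60 and 0 lower, with a median log2 ratio of 8.88 beside -0.73 over all genes and 10.8% of all genes called higher. Of the list, 8 genes are also AT2 markers, by which clusters were named and kept in or left out of the classes. Sftpc also drove the reporter of the AT2 gate, so the count follows in part from how the classes were made. Scd1, a desaturase of fatty acid synthesis, had 4783 CPM in AT2 and 3.36 CPM in AT1 cells, and Lamp3, a lamellar body protein, had 1452 and 1.601 CPM. Of acute phase and inflammatory genes, which C/EBP beta is known to activate in liver, 5 of 7 measured were higher in AT2 and 2 lower (10.8% and 38.9% of all genes were), with Lcn2 at 997 and 4.64 CPM and Hp at 954 and 11.2 CPM. Cebpb had 95.6 CPM in AT2 and 217 CPM in AT1 cells at P60, and a link between Cebpb and these genes was not tested. Between P60 and P3 AT1 cells, 3 of the 18 acute phase genes were measured, too few to describe the list. Of these, 0 were higher and 1 lower (Socs3, 4.48 and 45.6 CPM), beside 12.5% and 7.86% of all genes.

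**Figure D5:**
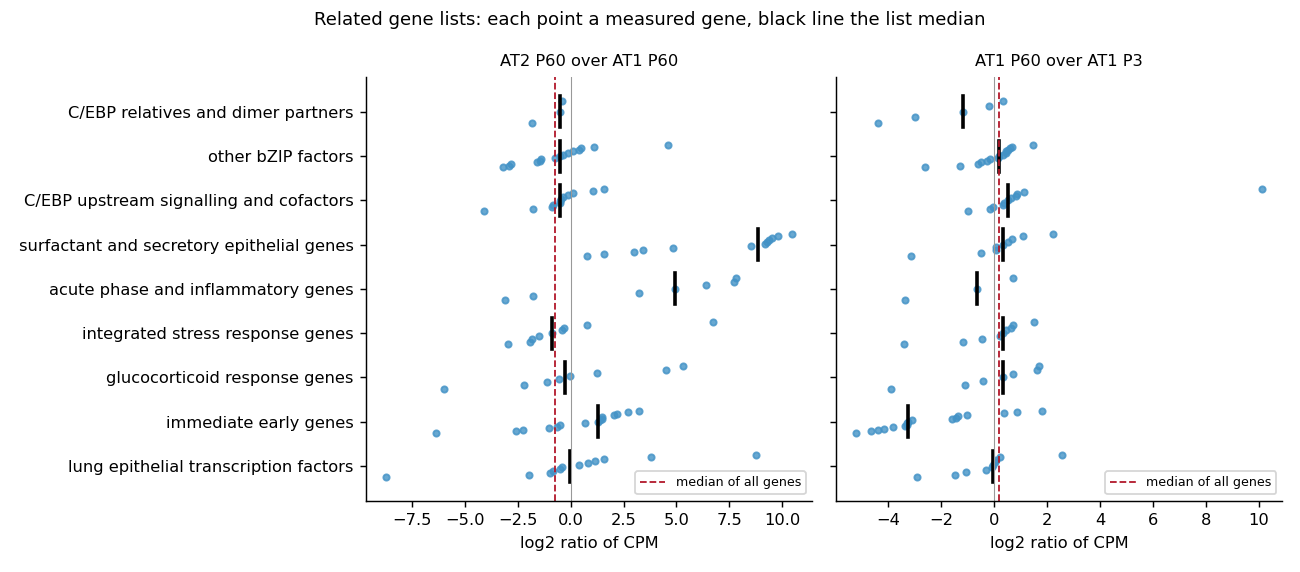
Log2 ratio of CPM for each measured gene of the related lists in AT2 over AT1 cells at P60 and in AT1 cells at P60 over P3, with black lines at list medians and a dashed line at the median of all genes. Surfactant and secretory genes have a median of 8.88 in the first panel, and immediate early genes have a median of -3.23 in the second.

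The genes whose pattern over the 4 libraries was most like that of each member were ranked by the root mean square difference of centred log2(CPM + 1), among 3855 genes with 50 CPM in at least 1 library. For Cebpa these were Il33 (0.325), Aox3 (0.431) and Chia1 (0.456), each above 135 CPM in AT2 cells and under 2 CPM in AT1 cells. For Cebpb they were Ephx1 (0.479), Cys1 (0.479) and P4ha2 (0.574): Ephx1 had 17.6 CPM in AT2 cells and 1.48, 10.4 and 52.7 CPM in AT1 cells at P3, P15 and P60. For Cebpg they were Mtch1 (0.0708), Herpud1 (0.108) and Smim1 (0.131). The measure rests on 4 values per gene.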

How the data were processed

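Single cells of 4 sorted populations were sequenced with the 10x 3′ protocol, per the labels' protocols, with 1 library per group. The number of animals per library is not stated. The authors deposited natural log values, which the numbers show to be ln(1 + UMIs scaled to 10000 per cell). Cell Ranger 1.3.1, Seurat 2.0.0 and the builds mm10 and hg19 are named per the submitters' processing notes. Undoing the log and taking each cell's lowest value as 1 UMI returned whole numbers, within 0.05, for 100% of values. From 3 to 15 cell barcodes were shared by pairs of libraries.

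Clustering was run per library (Scanpy 1.11.5, igraph 0.11.9, 2000 variable genes without the C/EBP genes, 20 components, 15 neighbours, Leiden resolution 0.5) and clusters were named from 13 marker lists. No doublet caller was run. Cells with 3 or more markers of another type (4 mesothelial, 5 club or ciliated) were set aside. Markers of the other alveolar type and basal and erythroid markers did not set single cells aside. A naming threshold set after the data were seen kept a cluster of 41 cells (1.30%) at P3 and one of 13 cells (0.621%) in AT2 out of the class. UMIs of the class were summed, and ratios have exact conditional Poisson intervals (SciPy 1.17.1). A gene counted as measured from 20 CPM and 30 UMIs in whichever library was higher, and as called at 2-fold. Named genes are the members, up to 4 genes per list and comparison with the largest absolute log2 ratio, Cebpe, Cebpz, Ddit3 and Atf4, and 3 genes most like each member; Atf3 and Nr3c1 are named in further libraries on that basis. The members and lists were chosen with earlier results of these data known. Ratios, intervals and thinning were tested on simulated data. Motifs were searched in RefSeq promoters. Alternatives tried were scaling, cell choice, resolution, minimum and fold.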

Additional observations from a re-analysis of the deposited data

How the results depend on the processing

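Directions of Cebpb and Cebpg in all 4 comparisons, and of Cebpa in AT2 over AT1, were the same under the 11 alternatives of scaling and cell choice. Log2 ratios of Cebpb ran from 1.34 to 2.01 (P15 over P3), 3.17 to 3.41 (P60 over P15), 4.52 to 5.25 (P60 over P3) and -1.38 to -0.50 (AT2 over AT1). Those of Cebpg ran from 0.80 to 1.21, -0.37 to -0.14, 0.47 to 0.91 and 0.47 to 1.49, and that of Cebpa in AT2 over AT1 from 6.30 to 10.69. The sign of Cebpa between AT1 ages, which passed no minimum, changed without the 1% of cells with most UMIs of it. Those cells held 91.7% of its AT1 UMIs at P3 and 100% at P15 and P60. No Cebpa UMI was then left at P15 or P60, where its value was the limit of 3 counts, so nothing is read from that change of sign. The number of members called higher at P15 over P3, 2, was 1 with trimmed mean scaling, without ribosomal, mitochondrial and haemoglobin genes, with all cells, and without the 1% of cells with most UMIs, (there Cebpb passed the fold but not the minimum), and 0 with a minimum of 50 CPM or a 4-fold threshold. For P60 over P3 and for AT2 over AT1, 1 higher call became 2 at 1.5-fold, and the call of AT2 over AT1 also became 2 with trimmed mean scaling or without ribosomal genes. The lower call of AT2 over AT1 became 0 under those 2 scalings and at 4-fold. Without a minimum, 1 member (Cebpa) was called lower for P60 over P15 and for P60 over P3. Shares of cells scale with the thinned depth. Leaving out AT2 cells with 3 or more AT1 markers left 82 cells. The subsets without immune, platelet or erythroid marker UMIs and with at least 3000 UMIs were chosen after the data were seen. No paired analysis was possible because each group has 1 library, and no library could be left out. Depth limits Cebpa in AT1 cells, where 3 counts are 0.134 to 0.480 CPM.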

Other observations

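Glucocorticoid response genes stood out at P15 among the lists related to C/EBP genes. Of 9 measured between P15 and P3, 7 were at least 2-fold higher at P15 and 1 lower (7.47% and 5.73% of all genes were), with a median log2 ratio of 2.28 beside 0.12 over all genes, and of 7 measured between P60 and P15, 0 were higher and 6 lower at P60 (4.32% and 3.7% of all genes were), with a median of -1.72. Sgk1, a glucocorticoid-induced kinase, had 3.62 CPM in AT2 cells and 72.5, 811 and 233 CPM in AT1 cells at P3, P15 and P60, and Tsc22d3 had 43.1 CPM in AT2 cells and 157, 1217 and 198 CPM in AT1 cells. The highest age for these genes was P15, while for Cebpb it was P60. Integrated stress response genes gave 1 higher and 2 lower of 9 measured between P60 and P3 (12.5% and 7.86% of all genes), with Asns, the asparagine synthetase gene, at 44.5 and 15.4 CPM and Psat1 at 8.17 and 86.3 CPM.

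Between AT2 and AT1 cells at P60, 8 of 15 measured immediate early genes were at least 2-fold higher in AT2 and 4 lower (10.8% and 38.9% of all genes were), with Fosb at 145 and 21.9 CPM and Ier3 at 22.9 and 1884 CPM. Of 15 other bZIP factors, 2 were higher in AT2 and 6 lower, which is near the shares over all genes, with the circadian factor Dbp at 88.2 and 3.68 CPM and its relative Tef at 28.9 and 263 CPM. Of 12 lung epithelial transcription factors, 4 were higher in AT2 and 2 lower, with Etv5, an AT2 marker used to name the classes, at 561 and 1.28 CPM and Hopx, whose reporter was used in the AT1 sort, at 14.0 and 5913 CPM.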
